A study of Mus musculus with 16 samples.

Results

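Srebf2, a transcription factor, and 6 enzymes of the cholesterol pathway (Hmgcs1, Idi1, Fdps, Sqle, Cyp51 and Msmo1) were followed in 2 tissues, liver and quadriceps, of fasted mice with and without Klf15. The genes were taken as a list of 8 by name, chosen with earlier results of these data known, so counts among them are a description. A probe set counted only when it was mapped to 1 of them alone. The listed sensor gene Insig1 was skipped because no probe set was mapped to it here, which left 7 of the 12393 named genes, read by 15 of 20380 probe sets with 1 symbol. RNA came from female mice 4 to 5 months old, all fasted for 18 h, so every group carries the fast. The 4 groups were wild-type liver, KLF15-null liver, wild-type quadriceps and KLF15-null quadriceps, each with 4 Affymetrix Mouse430A_2 arrays, numbered 1 to 4 in wild type and 5 to 8 in knockout. The sources used here give neither strain nor allele. Nor do the labels tie each number to an animal of its own, so the p-values reflect spread among these samples, which may be technical.

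Cells make cholesterol from acetyl-CoA through mevalonate, isoprenoid diphosphates, squalene and lanosterol. SREBP2, the protein of Srebf2, is held in the endoplasmic reticulum by SCAP and INSIG proteins while sterols are plentiful, and is cut free to act in the nucleus when they fall, where it switches on the genes of the pathway through sterol regulatory elements. Liver is a main site of cholesterol synthesis, and fasting is known to lower SREBP activity there. Klf15 belongs to the Kruppel-like zinc finger factors, which bind GC-rich and CACCC-type sequences.

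Promoter windows are shown for the 4 enzymes whose signal fell in knockout liver and, beside them, for Srebf2, whose signal did not pass the test. Each window runs from 250 bases before to 50 bases after the annotated start, 5′ to 3′ on the gene's strand, as given by RefSeq for GRCm38.p6. RefSeq windows for 5 of the 7 genes were in the table used. Capitals mark the sterol element core TCACNCCAC and the CCAAT box of NF-Y, a known partner of SREBP, read on either strand, so that a CCAAT box on the other strand appears as ATTGG. Srebf2 lies at chr15:82147019-82147318 (plus strand), Hmgcs1 at chr13:119690101-119690400 (plus strand), Idi1 at chr13:8885356-8885655 (plus strand), Cyp51 at chr5:4104648-4104947 (minus strand) and Msmo1 at chr8:64733529-64733828 (minus strand).
Srebf2: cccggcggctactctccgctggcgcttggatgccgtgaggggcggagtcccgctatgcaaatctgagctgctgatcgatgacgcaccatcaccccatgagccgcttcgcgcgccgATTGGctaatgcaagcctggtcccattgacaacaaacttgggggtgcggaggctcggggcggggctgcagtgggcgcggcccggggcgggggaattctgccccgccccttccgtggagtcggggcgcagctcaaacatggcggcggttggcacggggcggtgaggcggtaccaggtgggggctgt
Hmgcs1: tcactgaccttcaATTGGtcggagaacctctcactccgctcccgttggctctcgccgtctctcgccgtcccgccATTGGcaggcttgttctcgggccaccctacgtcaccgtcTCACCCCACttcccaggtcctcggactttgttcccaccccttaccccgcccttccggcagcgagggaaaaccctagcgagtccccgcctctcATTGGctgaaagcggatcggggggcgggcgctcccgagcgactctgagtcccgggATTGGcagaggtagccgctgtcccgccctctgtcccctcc
Idi1: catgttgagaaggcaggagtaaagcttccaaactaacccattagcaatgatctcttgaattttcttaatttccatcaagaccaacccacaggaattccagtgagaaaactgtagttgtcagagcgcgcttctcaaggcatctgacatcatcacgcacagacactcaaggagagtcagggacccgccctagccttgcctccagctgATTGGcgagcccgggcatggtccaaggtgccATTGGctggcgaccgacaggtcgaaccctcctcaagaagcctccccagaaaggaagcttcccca
Cyp51: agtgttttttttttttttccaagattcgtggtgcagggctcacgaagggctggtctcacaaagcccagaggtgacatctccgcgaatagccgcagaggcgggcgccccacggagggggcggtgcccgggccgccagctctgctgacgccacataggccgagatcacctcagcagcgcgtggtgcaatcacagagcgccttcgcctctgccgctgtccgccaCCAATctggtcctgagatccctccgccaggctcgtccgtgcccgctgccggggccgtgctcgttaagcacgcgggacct
Msmo1: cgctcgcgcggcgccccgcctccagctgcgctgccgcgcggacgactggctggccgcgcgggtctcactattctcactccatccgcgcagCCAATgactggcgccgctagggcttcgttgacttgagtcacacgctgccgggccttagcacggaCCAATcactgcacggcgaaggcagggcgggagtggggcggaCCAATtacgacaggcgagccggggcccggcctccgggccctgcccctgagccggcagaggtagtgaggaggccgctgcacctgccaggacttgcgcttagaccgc

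The sterol element core, sought on both strands, was found in 1 of these 5 windows, that of Hmgcs1, where TCACCCCAC begins 137 bases before the start. Only exact matches to TCACNCCAC were sought, so a window without a match may still hold a variant of the element. Over 32851 RefSeq windows of this length, 1.24% held it. CCAAT was present in all 5 windows, against 37.4% of all windows. Hmgcs1 held 4 copies, Msmo1 3, Idi1 2, and Cyp51 and Srebf2 1 each. At least 2 copies were found in 11.7% of all windows, at least 3 in 3.37% and at least 4 in 1.06%. The GC box GGGCGG stood in all 5 windows and in 35.7% of all. CACCC, a Kruppel-like motif sought on both strands, was found in the windows of Srebf2 (2 copies) and Hmgcs1 (3 copies) and in 57.5% of all windows. One of the Hmgcs1 copies lies inside its sterol element core, since TCACCCCAC itself contains CACCC. The E-box CACGTG was in none of the 5 windows and in 7.15% of all. A match is a description of letters and not a shown binding site.

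Signals are the deposited intensities, used as they are in liver and scaled to a common median in quadriceps, where array medians ran from 15.6 to 59.2, against 41.6 to 48.9 in liver. Knockout quadriceps 8 stood apart before any result is read: it had the lowest median, was scanned 3 days after the other quadriceps arrays, and had a Gapdh 3′/5′ ratio, which rises as RNA degrades, of 1.09 against 0.785 to 0.937 on the others, so quadriceps results are given with and without it. In liver this ratio was 0.710 to 0.804 in wild type and 0.739 to 0.765 in knockout. Within each tissue every wild-type array was washed on fluidics station 2 and every knockout array on station 1, so genotype and washing station cannot be told apart. The tissues were hybridised on different days, so tissue and hybridisation day cannot be told apart either. All 7 hepatocyte markers were above the filter in liver, where their summed signal was 50331 to 58843, against 88.7 to 152 in quadriceps. In each quadriceps group, 3 of the 7 hepatocyte markers were above the filter. All 7 myofibre markers were above it in quadriceps and none in liver.

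Klf15 was read first, as the check of the labels. Its liver signal was 1016, 1221, 1280 and 855 in wild type and 200.4, 155, 149 and 158 in knockout, and its quadriceps signal was 703, 514, 693 and 715 in wild type and 15.6, 78.7, 89.3 and 45.6 in knockout. Every knockout array lay below every wild-type array of its tissue. The sources used here do not say where this probe set lies relative to the deleted part.

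The first comparison asks which of these genes differ in liver without Klf15. In knockout liver, 4 of the 6 enzymes fell: Msmo1, Hmgcs1, Idi1 and Cyp51 were at 33.2%, 44.7%, 49.97% and 55.8% of their mean wild-type signal. The other two enzymes, Fdps and Sqle, were at 68.6% and 64% and did not pass the test. Srebf2, which encodes the regulator, was at 106% and did not pass either. Thus 4 of 7 genes were lower and 0 higher by limma at an adjusted p under 0.05, where 10.1% of all 7988 genes tested passed in either direction and 5.25% were lower. The median log2 difference of the 7 was -0.72, against 0.03 over all genes tested. In whole tissue, fewer cells of a type and less RNA per cell cannot be told apart. All differences are knockout minus wild type of log2(signal + 16), which understates those of dim genes.

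Srebf2 signals in liver were 136, 148, 143 and 138 in wild type and 146, 133, 156 and 161 in knockout. The groups overlapped, and the knockout group held both the lowest and the highest array. The difference was 0.07 (SE 0.10, adjusted p = 0.747), with a 95% confidence interval from -0.16 to 0.29. A second probe set, 1426744_at, differed by 0.06 (adjusted p = 0.859).

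Hmgcs1, the cytosolic HMG-CoA synthase that makes the substrate of HMG-CoA reductase, gave 1811, 1552, 1342 and 1572 in wild-type liver. In knockout liver it gave 763, 741, 628 and 674. The groups were far apart, since the highest knockout array was well below the lowest wild-type array. The mean was 1569 ± 192 (SD, n = 4) in wild type and 702 ± 62.1 (SD, n = 4) in knockout. The difference was -1.14 (SE 0.10, adjusted p = 1.79e-05), and 0.451% of the genes tested had a smaller p. All 4 Hmgcs1 probe sets fell in a fit of every probe set, with differences of -1.14, -1.19, -1.07 and -0.95. The name of 1 of them, 1433445_x_at, marks it as holding probes that can match other sequences.

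Idi1, the isomerase that turns isopentenyl diphosphate into dimethylallyl diphosphate, gave 170, 351, 175 and 257 in wild-type liver and 100.4, 133, 118 and 125 in knockout liver. Wild-type arrays 2 and 4 were high and arrays 1 and 3 low, yet even these lay above every knockout array. The mean was 238 ± 85.1 (SD, n = 4) in wild type and 119 ± 13.9 (SD, n = 4) in knockout. The difference was -0.86 (SE 0.19, adjusted p = 0.013). The second Idi1 probe set, 1423804_a_at, fell by 1.13 (adjusted p = 0.00259) in a fit of every probe set.

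Fdps, the synthase of farnesyl diphosphate, from which squalene is made, gave 208, 285, 152 and 241 in wild-type liver and 140, 172, 124 and 173 in knockout liver. Wild-type array 3 lay inside the knockout range, so the groups overlapped. The difference was -0.48 (SE 0.17, adjusted p = 0.101, unadjusted p = 0.0149). Without wild-type array 3 it was -0.63 (adjusted p = 0.0214), and with the fluidics module number as a block it also passed (adjusted p = 0.0264). Another Fdps probe set, 1438150_at, was below the filter, with liver means of 3 and 5.05.

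Sqle encodes squalene epoxidase, the first oxygen-requiring step of the sterol branch. Its wild-type liver signals were 54, 120, 54 and 90.0, and its knockout signals 66.5, 51.5, 38 and 47.4. Knockout array 5 exceeded 2 of the 4 wild-type arrays, so the groups overlapped. The difference was -0.47 (SE 0.22, adjusted p = 0.212, unadjusted p = 0.0497).

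Cyp51, lanosterol 14-alpha-demethylase, gave 124, 163, 105 and 137 in wild-type liver and 68.9, 90.5, 71.6 and 64.1 in knockout liver. No knockout array reached the lowest wild-type array. The mean was 132 ± 24.5 (SD, n = 4) in wild type and 73.8 ± 11.6 (SD, n = 4) in knockout. The difference was -0.72 (SE 0.14, adjusted p = 0.00678). A second probe set, 1422533_at, fell by 0.78 (adjusted p = 0.0253), while 1422534_at was below the filter, with liver signals between 2.1 and 18.4. The gene's call was lost when the log values of all 3 probe sets were averaged (-0.46, adjusted p = 0.0897) and when all 16 arrays shared 1 fit (adjusted p = 0.0821).

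Msmo1, the sterol C4-methyl oxidase that acts after Cyp51, gave 230.2, 529, 334 and 449 in wild-type liver and 78.4, 179, 102 and 152 in knockout liver. Both groups spread widely, and they did not overlap. The mean was 385 ± 131 (SD, n = 4) in wild type and 128 ± 46.0 (SD, n = 4) in knockout. The difference was -1.48 (SE 0.26, adjusted p = 0.00261), the largest of the 7 genes in this fit.

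**Figure D1:**
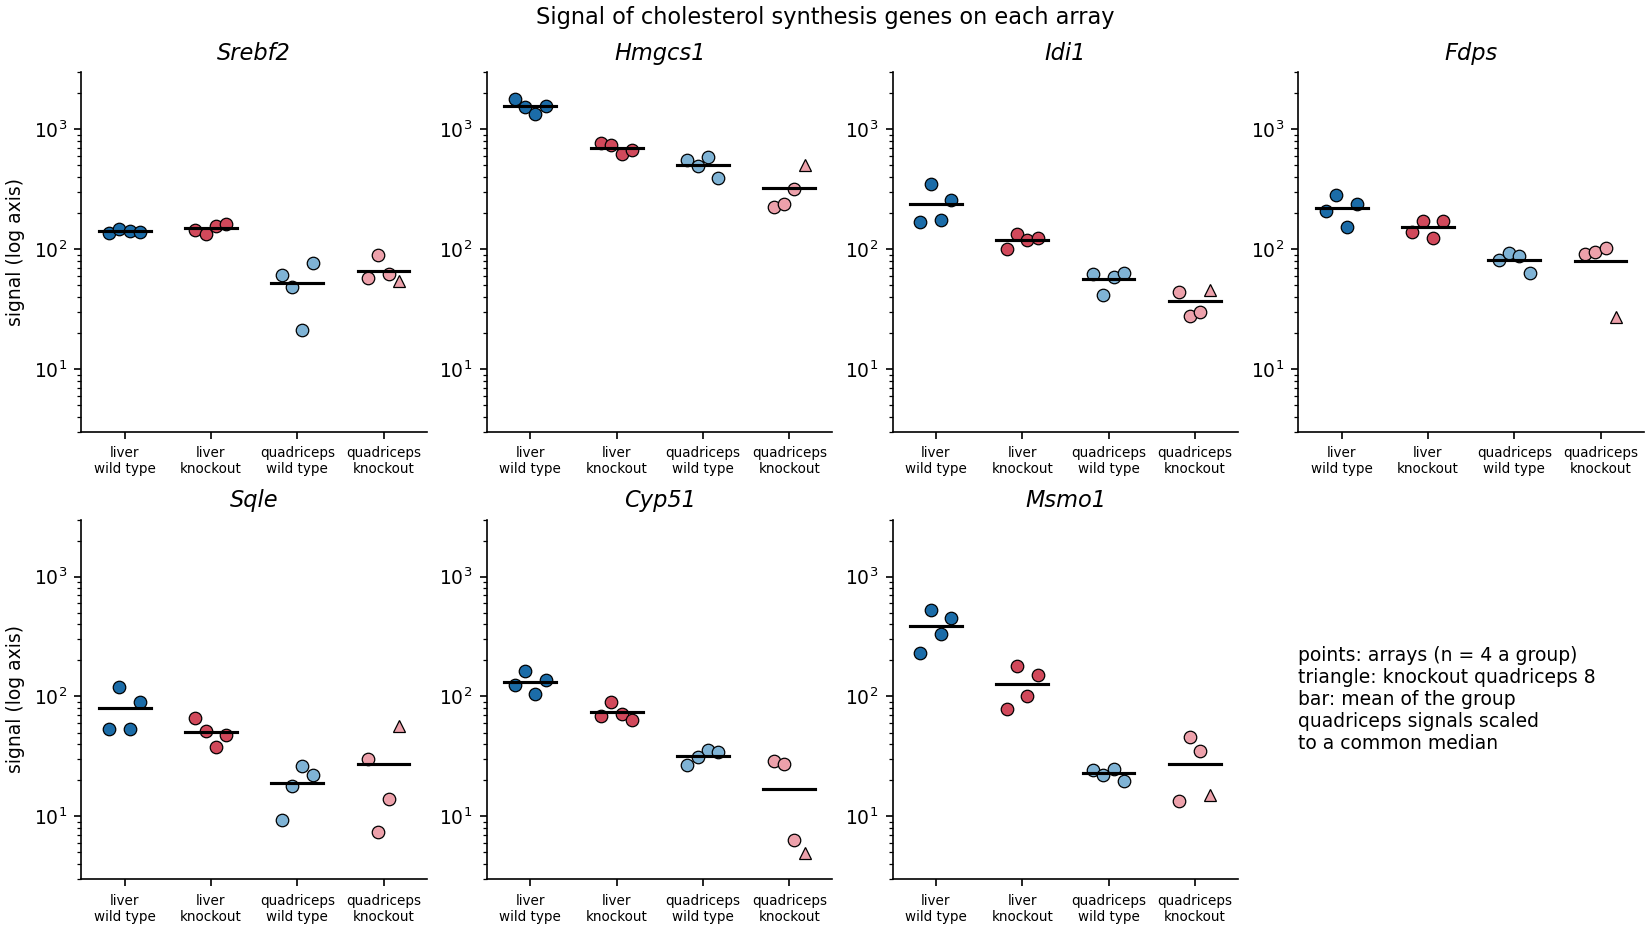
Signal of each gene on each array (log axis, arbitrary intensity units), 1 panel a gene, with the arrays of the 4 groups as points, the group mean as a bar and knockout quadriceps 8 as a triangle; quadriceps signals are scaled to a common median. In liver the knockout arrays of Hmgcs1, Idi1, Cyp51 and Msmo1 lie wholly below the wild-type arrays, while those of Srebf2, Fdps and Sqle overlap them; heights are not comparable between panels.

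For 4 of the 7 genes, Hmgcs1, Idi1, Cyp51 and Msmo1, all knockout liver arrays were below all wild-type arrays, which held for 7.49% of the genes tested. Of the 13 probe sets of the 7 genes above the filter in liver, 9 were lower and 0 higher when every probe set was its own feature, where 4.36% of probe sets were called lower. Those 9 were the 4 of Hmgcs1, both of Idi1, 2 of the 3 of Cyp51 and that of Msmo1.

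Each fluidics module number was shared by 1 wild-type and 1 knockout array of each tissue, washed on different stations. The difference could thus be read between arrays of 1 module number, a pairing by position and not by a shared washing unit. Below, a module means such a pair. In liver, Hmgcs1 was lower in knockout in 4 of 4 modules, with differences from -1.23 to -1.05. Msmo1 was lower in 4 of 4, from -1.57 to -1.38, a narrow range although its signal spread widely within each genotype. Idi1 (-1.30 to -0.51), Cyp51 (-0.94 to -0.46) and Fdps (-0.68 to -0.27) were each lower in 4 of 4 modules. Sqle was lower in 3 of 4, and Srebf2 in 1 of 4. For Hmgcs1, Msmo1, Idi1 and Cyp51 the groups did not overlap, so 4 of 4 holds under any pairing of the arrays and adds nothing. The share of all genes lower in 4 of 4 was not counted, so that of Fdps is a description.

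**Figure D2:**
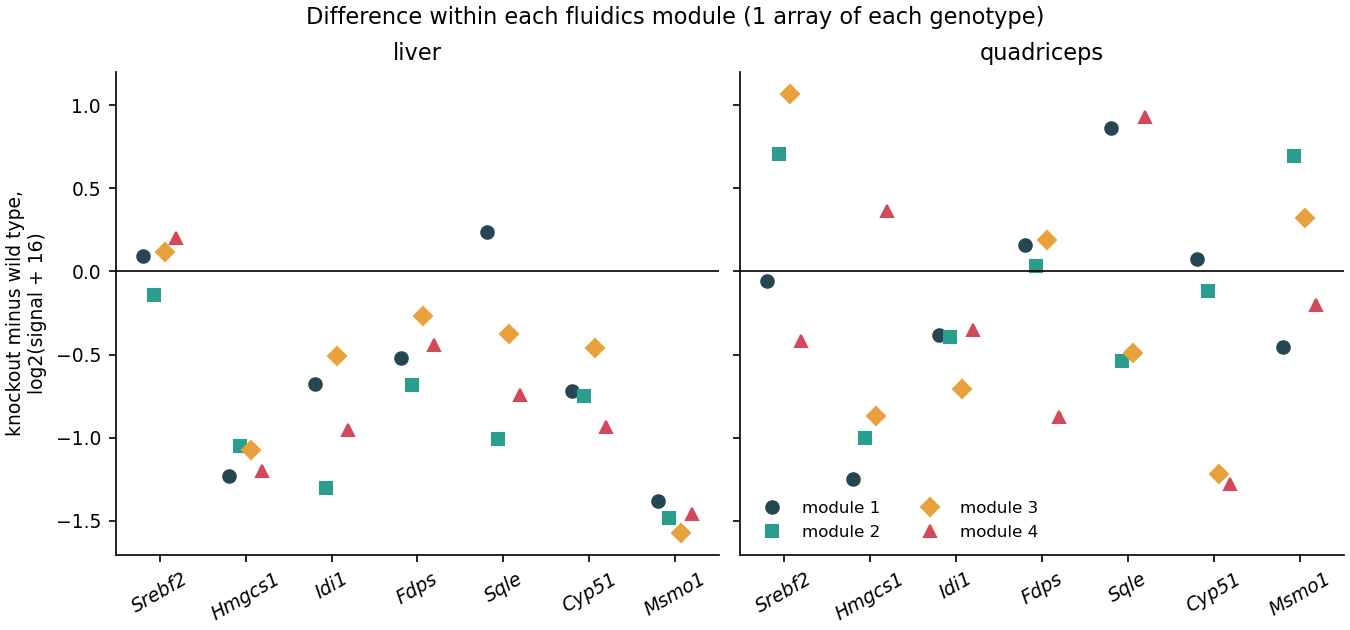
Knockout minus wild type of log2(signal + 16) between the arrays that share each of the 4 fluidics module numbers (points, 1 array of each genotype). The 7 genes are shown for liver on the left and quadriceps on the right. In liver all 4 points of Hmgcs1, Idi1, Fdps, Cyp51 and Msmo1 lie below 0; in quadriceps only those of Idi1 do.

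The genes also varied among arrays of 1 genotype. The coefficient of variation over the 4 wild-type arrays was 3.92% for Srebf2 and 12.2% for Hmgcs1, against 35.7% for Idi1, 25.2% for Fdps, 40.03% for Sqle, 18.5% for Cyp51 and 34.0% for Msmo1. Wild-type array 2 was the highest of its group for 6 of the 7 genes. Hmgcs1 was the exception, with its highest signal on array 1, where 4 of the others were lowest, Sqle tied with array 3. Wild-type array 4 was above the group mean for 6 of 7 genes. In knockout liver, array 6 was above the mean for 6 genes and array 7 for 1. These counts were not set against those of all genes, and the liver arrays were not scaled.

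**Figure D3:**
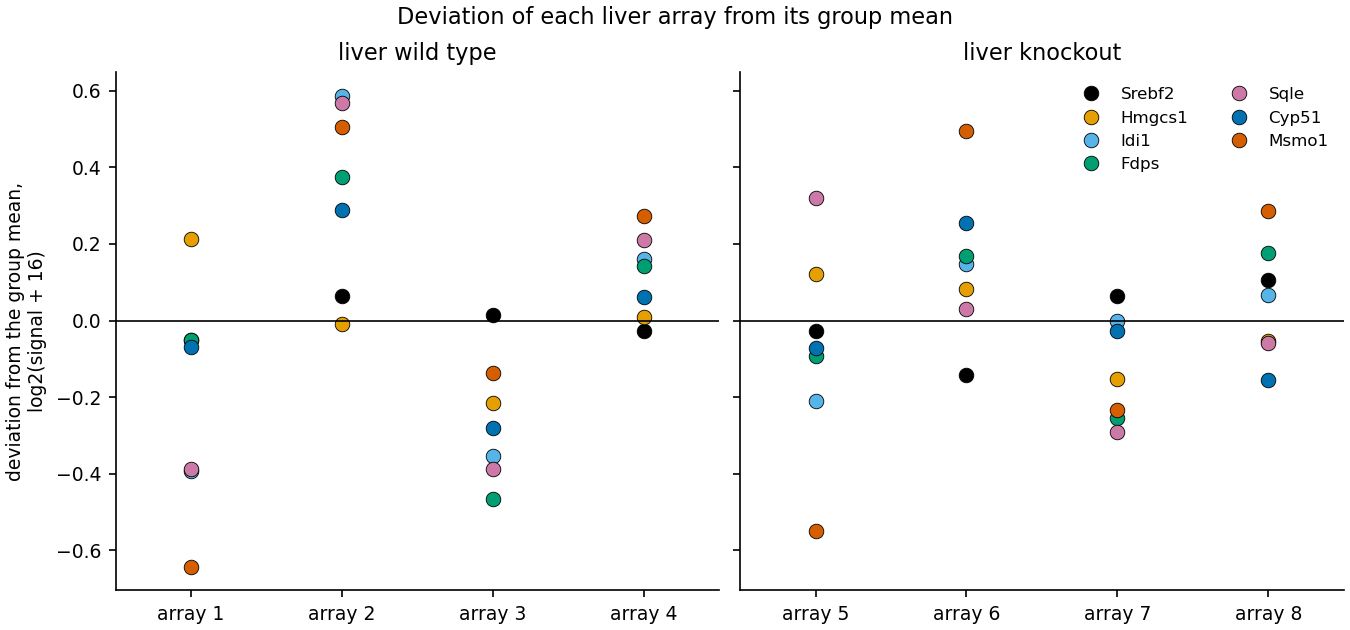
Deviation of each liver array from the mean of its genotype (log2(signal + 16), vertical axis) for the 7 genes, wild-type arrays 1 to 4 on the left and knockout arrays 5 to 8 on the right. On wild-type array 2 the deviations of Idi1, Sqle, Msmo1, Fdps and Cyp51 lie from 0.29 to 0.59 and those of Srebf2 and Hmgcs1 near 0.

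The mean standardised profile of the 7 genes over the 8 liver arrays, with each genotype's mean subtracted, was set against every other gene tested in liver, as a description without a test. The 8 genes most like it by Pearson's r were Foxk2 (r = 0.973), Arhgap45 (0.943), Aopep (0.916), Lamtor4 (0.914), 4632415L05Rik (0.898), Thoc1 (0.898), Srebf1 (0.898) and Recql5 (0.894). These are the highest of the correlations of all genes tested, taken over 8 arrays, and wild-type and knockout arrays share fluidics module numbers. Among the 7 genes themselves, r with this profile was 0.945 for Fdps, 0.934 for Idi1, 0.846 for Sqle, 0.831 for Cyp51 and 0.731 for Msmo1, each counted in the profile. It was 0.246 for Hmgcs1 and 0.08 for Srebf2.

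Quadriceps was then asked the same question. None of the 6 genes tested there passed (limma, adjusted p under 0.05), where 1.03% of all 7988 genes passed. An unadjusted p under 0.05 was found for 3 of the 6 and for 16.6% of all genes. The median difference of the 6 was -0.29, against -0.18 over all genes. Without knockout array 8, 22.6% of 7989 genes passed, and Hmgcs1 was the 1 gene of these that fell. The Gapdh 3′/5′ ratio then also separated the genotypes, at 0.855 to 0.937 in wild type and 0.785 to 0.790 in knockout, and its part in the result was not tested. Sqle was not tested, as its mean lay under the filter signal of 24.1.

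Hmgcs1 gave scaled signals of 555, 498, 594 and 390.3 in wild-type quadriceps and 224, 241, 318 and 507 in knockout quadriceps. Knockout array 8 lay among the wild-type arrays, and the other three knockout arrays lay below all of them. The difference was -0.69 (SE 0.25, adjusted p = 0.205). Without array 8 it was -0.92 (SE 0.18, adjusted p = 0.00571), with every knockout array lower, as in 30% of all genes without that array. Its probe set 1433444_at gave 388 ± 22.9 (SD, n = 4) in wild type and 238 ± 69.6 (SD, n = 4) in knockout. It had no overlap even with array 8 included and did not pass (limma, -0.71, adjusted p = 0.16). The remaining probe sets, 1433445_x_at (-0.59, adjusted p = 0.267) and 1433446_at (-0.37, adjusted p = 0.354), overlapped and did not pass either.

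Idi1 gave 62.3, 41.5, 58.8 and 63.1 in wild-type quadriceps and 43.9, 27.7, 29.8 and 46.1 in knockout. Knockout was lower for each of the 4 fluidics module numbers, from -0.71 to -0.35, but wild-type array 2 lay within the knockout range. The share of all genes lower for each number was not counted, and the median difference over all genes was -0.18. The difference was -0.46 (SE 0.20, adjusted p = 0.281), and -0.54 (adjusted p = 0.0646) without array 8. The second probe set, 1423804_a_at, was under the filter. It gave 29.4 ± 3.64 (SD, n = 4) in wild type and 14.1 ± 6.54 (SD, n = 4) in knockout, with no overlap. It did not pass in a limma fit with no filter (-0.61, adjusted p = 0.323). Of the 15 probe sets of the listed genes, 2 had no overlap in quadriceps, this one and 1433444_at of Hmgcs1. The share of all probe sets without overlap is not given here.

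Cyp51 gave 26.6, 31.2, 36.1 and 34.7 in wild-type quadriceps and 29, 27.5, 6.4 and 4.9 in knockout. On the probe set used, 1450646_at, knockout arrays 7 and 8 were far below the rest, and arrays 5 and 6 lay in the wild-type range. The difference was -0.63 (SE 0.29, adjusted p = 0.285), and -0.44 (adjusted p = 0.23) without array 8. The knockout mean of 17.0 was under the filter, so the gene was tested through its wild-type arrays. The remaining Cyp51 probe sets were under the filter and overlapped, at -0.15 for 1422533_at and 0.35 for 1422534_at. On knockout arrays 7 and 8, 1422533_at read 24.5 and 13.6, against 16.4 to 24.9 in wild type.

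Fdps gave 80.7, 93.2, 88.0 and 63.0 in wild-type quadriceps and 92, 95.6, 103 and 27 in knockout. Knockout array 8 was below every other quadriceps array, and the other three knockout arrays lay near or above the wild-type arrays. The difference was -0.12 (adjusted p = 0.839), and 0.22 (adjusted p = 0.324) without it. Srebf2 gave 61, 48.4, 21.3 and 77.5 in wild type and 57.9, 89.1, 62.2 and 54 in knockout, with overlap and a difference of 0.33 (adjusted p = 0.506). Probe sets 1438150_at of Fdps (0.49) and 1426744_at of Srebf2 (0.16) were under the filter and overlapped.

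Msmo1 was dim in quadriceps, at 24.3, 22.3, 24.6 and 19.9 in wild type and 13.4, 46.1, 34.8 and 15.2 in knockout. The knockout arrays lay on both sides of the wild-type arrays. The difference was 0.09 (SE 0.27, adjusted p = 0.889). The wild-type mean of 22.8 was under the filter, so the gene was tested through its knockout arrays. Sqle lay between 9.4 and 26.2 in wild type and between 7.4 and 56.9 in knockout.

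**Figure D4:**
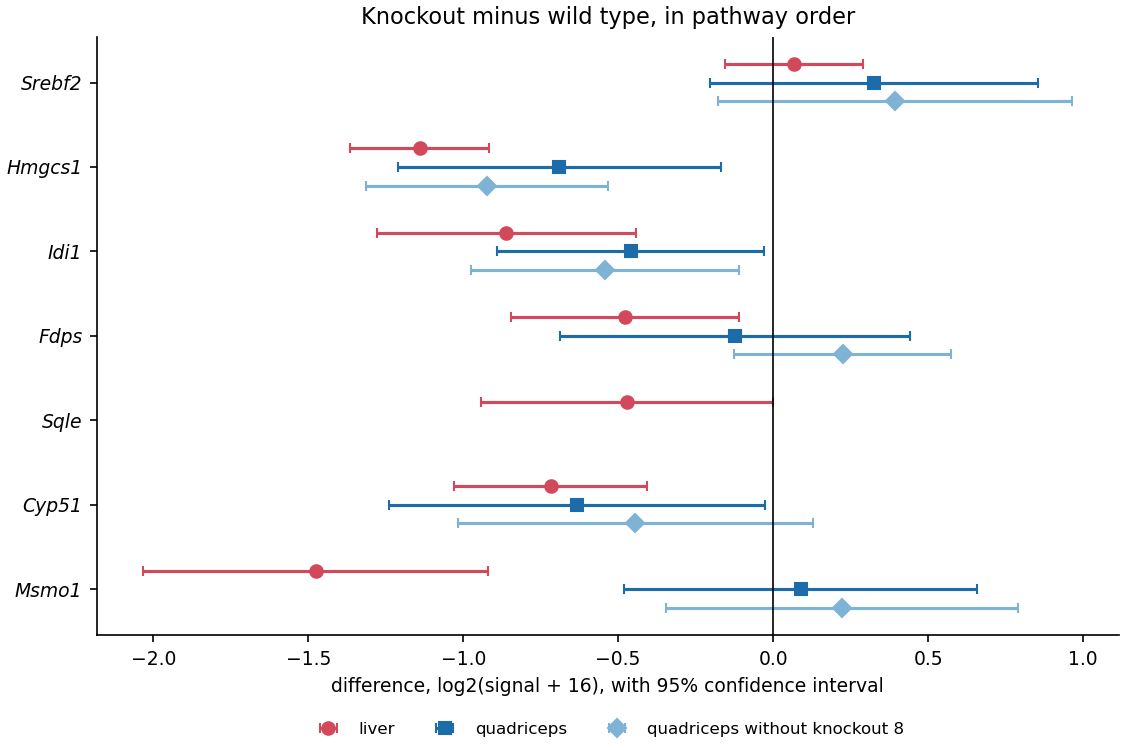
Knockout minus wild type of log2(signal + 16) with its 95% confidence interval for the 7 genes in pathway order, in liver (circles), quadriceps (squares) and quadriceps without knockout array 8 (diamonds); Sqle was tested in liver alone. The liver intervals of Hmgcs1, Idi1, Cyp51 and Msmo1 lie well below 0, and that of Msmo1 in quadriceps spans 0.

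Whether the knockout difference itself differed between tissues was tested over all 16 arrays. The liver difference minus the quadriceps difference was below 0 for all 7 genes, with a median of -0.40 against 0.18 over all genes, though Cyp51 turned positive with a pseudocount of 1 (0.42), and Cyp51 and Srebf2 did so when some single arrays were left out (up to 0.10 and 0.01). It passed for 1 of the 7, Msmo1, where 1.95% of 8987 genes passed. Msmo1 gave -1.57 (SE 0.37, adjusted p = 0.0283). The other values ran from -0.66 for Sqle to -0.08 for Cyp51. Sqle entered only through its liver arrays, since its mean in quadriceps lay under the filter. Hmgcs1 gave -0.45 (95% confidence interval -1.05 to 0.15, adjusted p = 0.412), and Idi1 gave -0.40 (-0.99 to 0.18, adjusted p = 0.459).

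For Msmo1 the scale limits what quadriceps could show. With a wild-type mean of 22.8 there, log2(signal + 16) could fall by at most 1.28, less than the liver difference of -1.48. The Msmo1 call was kept in 16 of 28 other settings, with adjusted p from 0.00592 to 0.12. It was lost without wild-type liver 2 or 4, knockout liver 5 or 7, wild-type quadriceps 2, 3 or 4, or knockout quadriceps 6 or 7, where the value ran from -1.59 to -1.37 and the adjusted p from 0.0506 to 0.0749. Without knockout quadriceps 8, Msmo1 (-1.70, adjusted p = 0.00592) and Fdps (-0.70, adjusted p = 0.0499) passed, where 18.6% of all genes did.

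Liver was then set against quadriceps within each genotype, as the order of the 4 groups. All 7 genes were higher in liver than in quadriceps in wild type, where 69.3% of 8987 genes differed and 33.5% were higher in liver. Sqle entered this and the knockout comparison only through its liver arrays, since its mean over the quadriceps arrays lay under the filter. No arrays overlapped between the tissues for any of the 7, as for 33.3% of all genes in that direction. The largest difference was that of Msmo1, at 3.31 (SE 0.26, adjusted p = 2.89e-10), a ratio of mean signals of 16.9. The others ran from 1.27 (SE 0.25, adjusted p = 0.000138) for Fdps to 1.77 (SE 0.20, adjusted p = 7.37e-08) for Idi1, with Srebf2 at 1.29, Sqle at 1.42, Hmgcs1 at 1.60 and Cyp51 at 1.61. Their ratios of means lay between 2.71 for Srebf2 and 4.23 for Idi1.

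In knockout mice all 7 genes were again higher in liver, where 68.5% of genes differed and 38.9% were higher. Msmo1 differed by 1.74 (SE 0.26, adjusted p = 5.2e-06), with a ratio of means of 4.67. Cyp51 differed by 1.53, Idi1 by 1.37, Hmgcs1 by 1.15, Srebf2 by 1.03, Fdps by 0.91 and Sqle by 0.75. The arrays of the tissues were separate for 6 of the 7, as for 33.7% of all genes. Sqle was the exception, since knockout quadriceps 8, at 56.9, lay within the liver range, and its call (adjusted p = 0.027) was lost without knockout liver 5 (adjusted p = 0.0794) or knockout quadriceps 6 (adjusted p = 0.124) or 7 (adjusted p = 0.0843). Without knockout quadriceps 8, Sqle differed by 1.05 (adjusted p = 0.00156) with no overlap.

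Across the groups, the enzymes that fell in liver kept 1 order. Wild-type liver was highest, knockout liver next and both quadriceps groups lowest. For Hmgcs1 the lowest knockout liver array, 628, was above the highest wild-type quadriceps array, 594, and these neighbours were not tested against each other. Between genotypes, the quadriceps groups of all 6 genes tested there and the liver groups of Srebf2, Fdps and Sqle overlapped and did not pass.

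**Figure D5:**
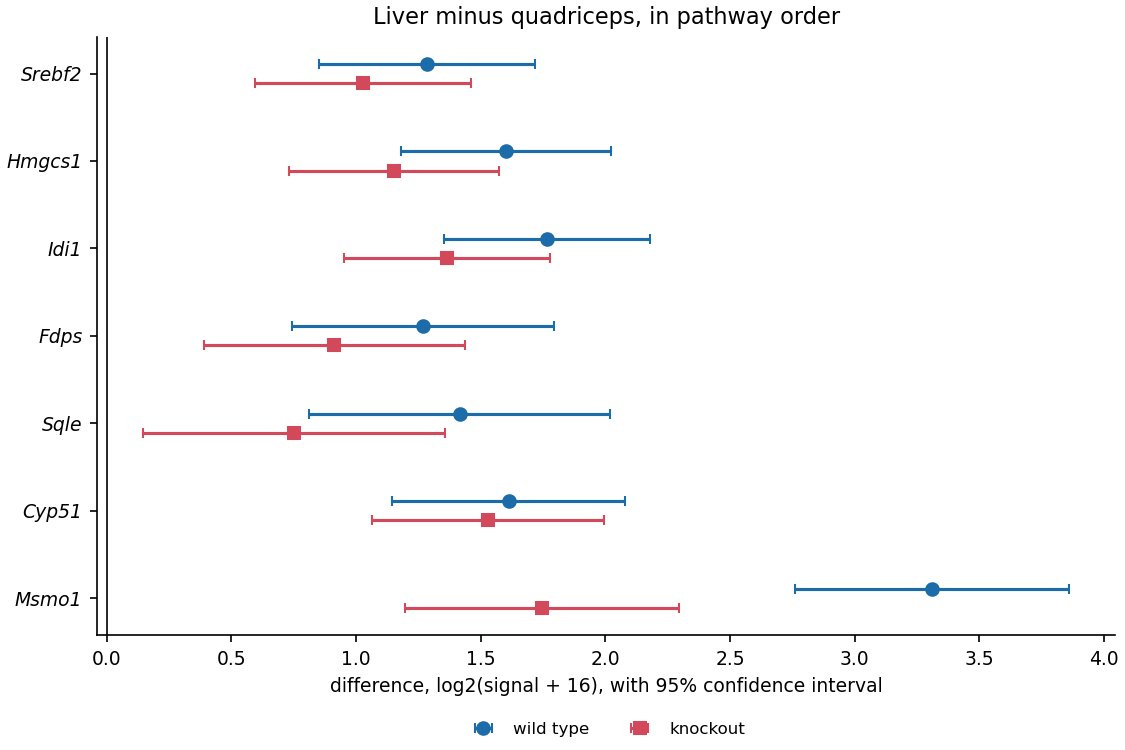
Liver minus quadriceps of log2(signal + 16) with its 95% confidence interval for the 7 genes in pathway order, in wild type (circles) and knockout (squares). All intervals lie above 0, and for Msmo1 the wild-type value of 3.31 stands apart from the knockout value of 1.74.

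Other genes of the pathway were read from lists drawn up by function with earlier results of these data known, so their counts are a description. Of 13 other cholesterol synthesis genes tested in liver, 4 fell and 0 rose, where 5.25% of all genes fell, with a median of -0.45 against 0.03 over all genes. Hsd17b7, the 3-ketosteroid reductase of sterol C4 demethylation, went from 166 ± 18.5 to 90.8 ± 17.0 (SD, n = 4 each) and fell by 0.78 (adjusted p = 0.00255). Tm7sf2, the sterol C14 reductase that acts after Cyp51, fell by 0.78 (adjusted p = 0.00904). Nsdhl, which works with Msmo1 and Hsd17b7 to remove the C4 methyl groups, fell by 0.60 (adjusted p = 0.031), and Pmvk, the second kinase of the mevalonate branch, fell by 0.46 (adjusted p = 0.0294). Thus Msmo1, Nsdhl and Hsd17b7, which carry out C4 demethylation in turn, each fell.

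The calls of Nsdhl and Pmvk lay near the threshold. With no filter on low signals both were lost (adjusted p = 0.06 for Nsdhl and 0.0683 for Pmvk), and that of Pmvk also with the module number as a block (adjusted p = 0.0633). Nsdhl lost its call without wild-type liver 1, 2 or 4 or knockout liver 5 or 7 (adjusted p from 0.0635 to 0.0835). Pmvk lost it without wild-type liver 1, 2 or 3 or knockout liver 5 or 7 (adjusted p from 0.0619 to 0.0938). Fdft1 and Lss, which flank Sqle in the pathway and were singled out for that place after their values were seen, gave -0.46 (adjusted p = 0.055) and -0.45 (adjusted p = 0.101).

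Among 6 genes of SREBP control, 1 fell and 1 rose in liver, where 10.1% of all genes passed in either direction. Srebf1, the gene of SREBP1, went from 277 ± 35.1 to 123 ± 1.61 (SD, n = 4 each), a difference of -1.07 (adjusted p = 4.43e-05), while Srebf2 did not pass. Whether the 2 regulators differ in this was not tested. Erlin1, of a complex that takes part in turnover of sterol-regulated membrane proteins, rose by 0.40 (adjusted p = 0.0242), and lost its call without wild-type liver 1 or 4 or knockout liver 7 (adjusted p from 0.0518 to 0.0727).

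Among 11 other sterol-responsive SREBP targets tested in liver, 2 passed, against 10.1% of all genes. Cyb5b, a membrane cytochrome b5, fell by 0.48 (adjusted p = 0.0118), and Acly, the citrate lyase that supplies cytosolic acetyl-CoA, rose by 0.44 (adjusted p = 0.0121). With each gene taken as the mean over its probe sets, neither passed, at -0.32 (adjusted p = 0.0663) for Cyb5b and 0.16 (adjusted p = 0.405) for Acly. Among 11 genes of cholesterol export and LXR action, 2 passed. Cyp27a1, a bile acid and oxysterol enzyme, fell by 0.46 (adjusted p = 0.00397). Abcg5, of the biliary sterol transporter, rose by 0.45 (adjusted p = 0.0369). The Abcg5 call was lost without wild-type liver 2 or 3 or knockout liver 6, 7 or 8 (adjusted p from 0.0686 to 0.103). With all 16 arrays in 1 fit, Pmvk, Erlin1, Cyb5b, Acly, Cyp27a1 and Abcg5 all lost their calls (adjusted p from 0.0563 for Acly to 0.271 for Abcg5, with 0.179 for Cyp27a1 and 0.19 for Cyb5b). The medians of these lists were -0.12 and 0.01, close to that of all genes.

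In quadriceps, 0 of the 11, 6, 10 and 6 genes tested in these 4 lists passed by limma, against 1.03% of all genes, and 5 of the 33 had an unadjusted p under 0.05, against 16.6% of all genes. The smallest p of the other synthesis genes belonged to Tm7sf2 (-0.58, adjusted p = 0.23) and Ggps1 (-0.47, adjusted p = 0.289). The values of Erlin1 (-0.55), Mbtps1 (-0.40), Cyb5b (-0.53), Npc2 (-0.39), Abcg1 (-0.14) and Scarb1 (0.07) led the other lists by p. Without knockout quadriceps 8, Erlin1 (-0.70, adjusted p = 0.0149), Cyb5b (-0.73, adjusted p = 0.00977) and Npc2 (-0.45, adjusted p = 0.0494) passed, where 22.6% of all genes did, and Abcg1 was 0.09.

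Markers of cells were read beside the falls in liver. The 7 hepatocyte markers summed to 55363 to 58843 in wild-type liver and 50331 to 54747 in knockout liver, ranges that did not overlap, and 1 of the 7, Tat, a fasting-induced aminotransferase, was lower (-0.67). The 7 macrophage markers summed to 2812 to 4075 in wild type and 3201 to 5389 in knockout, with Marco higher (1.58). The 5 endothelial markers summed to 349 to 453 and 451 to 536, with Kdr higher (0.49). Each of these lists thus held 1 marker that passed, where 10.1% of all genes did. The median differences were -0.06 for hepatocyte, 0.19 for macrophage and 0.18 for endothelial markers, against 0.03 over all genes tested. A sum follows its brightest markers most. In quadriceps, 5 adipocyte markers summed to 4508 to 6795 in wild type and 2958 to 7826 in knockout. The 7 myofibre markers summed to 56867 to 84877 in wild type and 53242 to 185532 in knockout. Median quadriceps differences were -0.50 for adipocyte, 0.32 for myofibre, 0.15 for macrophage and -0.27 for endothelial markers, against -0.18 over all genes. No marker of any list passed there, where 1.03% of all genes did. The part of these cells in the results was not tested.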

How the data were processed

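RNA from 16 samples was measured on 16 arrays in 4 groups of 4, assigned from sample titles. The deposited values are linear intensity for each probe set, which the authors obtained from GCOS (Affymetrix software), per the submitters' processing notes. The sources used here give no version, summary method or scaling for it. Station, module and scan day came from the deposited instrument record of each array. Of 22690 probe sets, 20380 carried 1 gene symbol in the platform annotation.

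Arrays were scaled to their median only in quadriceps, where medians differed by over 1.5 times (factors 0.678 to 2.57), and transformed as log2(signal + 16). A gene was read by its probe set of highest mean over the arrays, and tested where its mean in the tissue reached the 40th percentile of probe sets (25.1 in liver, 24.1 in quadriceps). Both the tissue comparison and the interaction took genes that reached it in either tissue. Differences were fitted with limma 3.58.1 in R 4.3.3 (lmFit, eBayes with trend), each tissue alone for genotype and all 16 arrays for the rest, and adjusted by Benjamini-Hochberg over all genes with a threshold of 0.05. The fits were tested on simulated data. The number of arrays limits the precision. Other pseudocounts, filters, scalings, probe set rules, batch terms and arrays left out were tried. The text names the listed genes, Klf15, members of 4 function lists past the threshold or otherwise the 2 of smallest p, called markers and the 8 genes most like the profile. Members and lists were chosen with earlier results of these data known. Figures were drawn with matplotlib 3.10.9.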

Additional observations from a re-analysis of the deposited data

Results flagged for a closer look

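Fdps in quadriceps had a signal of 27 on knockout array 8, against 92 to 103 on the other knockout arrays. This array lay far below the rest of its group, and it was the 1 such value among 28 groups of 4 arrays examined for the 7 genes, where chance gives about 1 in 20. It was the array with the lowest median signal, the later scan and the highest Gapdh 3′/5′ ratio.

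The knockout effect of Msmo1 in liver minus that in quadriceps was -1.57 (limma, adjusted p = 0.0283), a call lost in 12 of 28 other settings. Its wild-type mean in quadriceps, 22.8, was under the filter of 24.1, where the log2(signal + 16) scale allows a fall of at most 1.28, less than the liver difference of -1.48. In liver, knockout was lower in 4 of 4 pairs of arrays sharing a fluidics module number, which any pairing gives since the groups did not overlap. In quadriceps it was lower in 2 of 4.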

How the results depend on the processing

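In liver, Hmgcs1, Idi1 and Msmo1 fell under all 19 other settings and Cyp51 under 17, so 3 to 5 of the 7 genes passed. The number in quadriceps went from 0 to 1 (Hmgcs1) with the scan day as a block. Knockout 8 was the only array of its scan day, so this block amounts to leaving it out. The number was also 1 with quantile normalization leaving out knockout 8 together, a setting chosen after seeing the data. With single arrays left out it was 1 without knockout 8 and 0 otherwise. These changes thus all rest on the removal of that array. For the tissue difference in the knockout effect the number went from 1 to 0 with a pseudocount of 1, quantile normalization and no scaling, to 2 with quantile normalization and no knockout quadriceps 8, and was 0 to 2 with single arrays left out. In liver against quadriceps, 6 or 7 passed throughout.

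Signs turned for quadriceps values that had not passed: with the mean of all probe sets, Fdps 0.19, Ggps1 0.02, Mbtps1 0.07, Cyb5b 0.04 and Scarb1 -0.16; with no scaling, Msmo1 -0.07 and Scarb1 -0.21; with the scan day block, Fdps 0.22 and Abcg1 0.09; with quantile normalization and no knockout 8, Fdps 0.39 and Abcg1 0.11. Leaving out single arrays, Fdps ran from -0.26 to 0.22 and Abcg1 from -0.25 to 0.09. In the tissue difference, Cyp51 was 0.42 with a pseudocount of 1 and -0.27 to 0.10 leaving out single arrays, and Srebf2 -0.44 to 0.01. The cause was not tested.

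Counts over all genes moved from 808 to 329 in liver with 16 arrays in 1 fit. In quadriceps they moved from 82 to 46 (no filter), 45 (no trend), 139 (no scaling), 333 (16 arrays), 161 (module block), 1791 (scan day block), 657 (quantile, no knockout 8) and 33 to 1803 (single arrays left out). The tissue difference moved from 175 to 95 and 286 (pseudocounts 1 and 64), 343 (quantile), 287 (no scaling), 928 (quantile, no knockout 8) and 114 to 1675. Liver against quadriceps moved from 6229 to 9467 in wild type and from 6156 to 9407 in knockout with every probe set. The median of all genes in quadriceps was -0.48 with no scaling and -0.06 with quantile normalization, against -0.18. Correlations of same-numbered deviations between the tissues were -0.08 to 0.06 over 8 pairs, and 3 of 8 were best with their own number. Low correlation between different tissues cannot show whether the samples of a number came from the same animal. With the replicate block Msmo1 stayed at -1.57 (adjusted p = 0.0338), and 1, 7 and 7 of the 7 genes passed in the 3 fits that allow it. It changed no call.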
